A study of Mus musculus with 6 samples.

Results

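Metalloproteases of the ADAM and MMP families and their TIMP inhibitors were examined in microglia of the rostral nucleus of the solitary tract (NST), the first brain relay for taste. The 10 genes were chosen by name, from 26789 genes in the table of values: Adam8, Adam9, Adam10, Adam17, Adamts1, Mmp9, Mmp14, Timp1, Timp2 and Bmp1. The libraries came from mice on P15, 3 from control mice and 3 from E3–E12 diet mice. Per the study's methods, dams of E3–E12 diet mice ate a low-sodium chow from E3 to E12 and a standard chow afterwards, controls (C57Bl/6) had the standard chow throughout, and each library pooled littermates of 1 litter. The methods name magnetic sorting on CD11b, RNA amplification and 50-base reads, whereas the deposited description names laser microdissection, a Qiagen RNA extraction, a TruSeq library and 75-base reads, so how the libraries were made is uncertain. Values are normalized counts per gene as the authors scaled them, and the number of reads behind a value is not known. Wherever 3 values of a group are listed, they stand in the order of replicates 1, 2 and 3.

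ADAM proteases are membrane-anchored enzymes that cut the outer part of other membrane proteins free, a step called shedding. Matrix metalloproteinases (MMPs) cut components of the extracellular matrix and, like ADAMs, need zinc at their active site. TIMPs are secreted proteins that block these enzymes. In the brain, microglia are among the cells that make them, and shedding by ADAM10 and ADAM17 sets the surface level of receptors and cytokines on these cells.

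The label of the libraries was checked against 16 microglia markers, all of which were above 0 in each of the 6 libraries. Their summed normalized counts were 126262, 588300 and 339854 in the controls against 117656, 291863 and 401966 with the E3–E12 diet. Csf1r, the receptor for colony stimulating factor 1, was the most abundant. Both libraries numbered 1 thus held less of the microglia markers than the other 4. Control replicate 2 stood apart in another way. It had 10640 genes listed at 0 (39.7%), against 3459 to 7135 in the others. Its endothelial markers summed to 6114 normalized counts, against 17541 to 28293 elsewhere. These markers did not move together there. Tek (1.70) and Ly6c1 (0) had their lowest value in this library, whereas Pecam1 (3154) and Cldn5 (1207) had their highest. Oligodendrocyte markers summed to 44924, 18382 and 5234 normalized counts in the controls against 18218, 25158 and 6111 with the E3–E12 diet. Markers of choroid plexus and ependyma summed to 7306, 627 and 18900 against 40616, 123 and 620. The most abundant of them was Ttr, and without it the sums were 707, 529 and 951 against 2099, 120 and 222. Of 119 genes chosen by the names of ribosomal proteins and proteasome subunits, 8 were listed at 0 in some library. Such names can include forms that only some tissues use. Whether a 0 is a failed estimate or a true absence is therefore not known. In the scaling of the authors all 16 microglia markers had a lower mean log2 level in E3–E12 diet mice (median log2 fold change -0.28, 0 with an unadjusted p under 0.05 from limma), but 6 were higher after quantile normalization and 5 with equal library totals. The direction turned on single libraries: 12 were higher without control replicate 2 (median 0.20) and 16 without E3–E12 diet replicate 1 (median 0.26). Without control replicate 1 it did not turn, with 0 higher (median -1.02). In bulk libraries, fewer cells of a type and less RNA per cell cannot be told apart.

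Between the diets, none of the protease and inhibitor genes passed the threshold of an adjusted p of 0.1. Of the 10 genes, 9 had a mean of at least 10 normalized counts and were tested, and Timp1 was below that filter. With limma and Benjamini-Hochberg adjustment over 18007 genes, 0 of the 9 passed, where 0% of all genes did, and each had an adjusted p of 0.999 (the smallest of all genes was 0.225). Only Adam9 had an unadjusted p under 0.05, a level that 1.82% of all genes tested reached (327 genes). It passed the filter through 2 control libraries alone, so it is no support for a difference. In 0 of the 9 did the control and E3–E12 diet libraries fail to overlap, which 5.9% of all genes did. In E3–E12 diet mice the mean log2 level was lower for 7 genes and higher for 2, or 3 with equal library totals, with a median log2 fold change of -0.60 on the log2(normalized count + 1) scale. Among the 8 genes that no library listed at 0, it was lower for 6 and the median was -0.55. Over all genes tested the median was 0.087, with 54.4% higher in E3–E12 diet mice. The median over the 9 genes was -0.15 without control replicate 2, with 3 genes higher, -0.19 without E3–E12 diet replicate 1, with 3 higher, and -1.03 without control replicate 1, with 0 higher. Markers of border macrophages, the macrophages at the edges of the brain, were counted in the same way. Of 8 such markers, 1 (Pf4) had an unadjusted p under 0.05 from limma (0.0392, adjusted p 0.999), and its groups did not overlap. The mean log2 level in E3–E12 diet mice was lower for 7 of the 8 markers (median log2 fold change -0.44), and for 2 without control replicate 2. They summed to 6033, 21258 and 8337 normalized counts in the controls against 5682, 9398 and 9870.1 with the E3–E12 diet, with Mrc1 the most abundant and 0 markers at 0. Control replicate 2 was the highest in these markers, in the microglia markers and in library total (17204618 normalized counts). It was also the highest in 6 of the 10 genes (Adam9, Adam10, Adam17, Mmp9, Mmp14 and Bmp1). Of these, Adam17 and Bmp1 had mean log2 levels nearly equal between the groups. The part of border macrophages in the values was not tested.

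**Figure D1:**
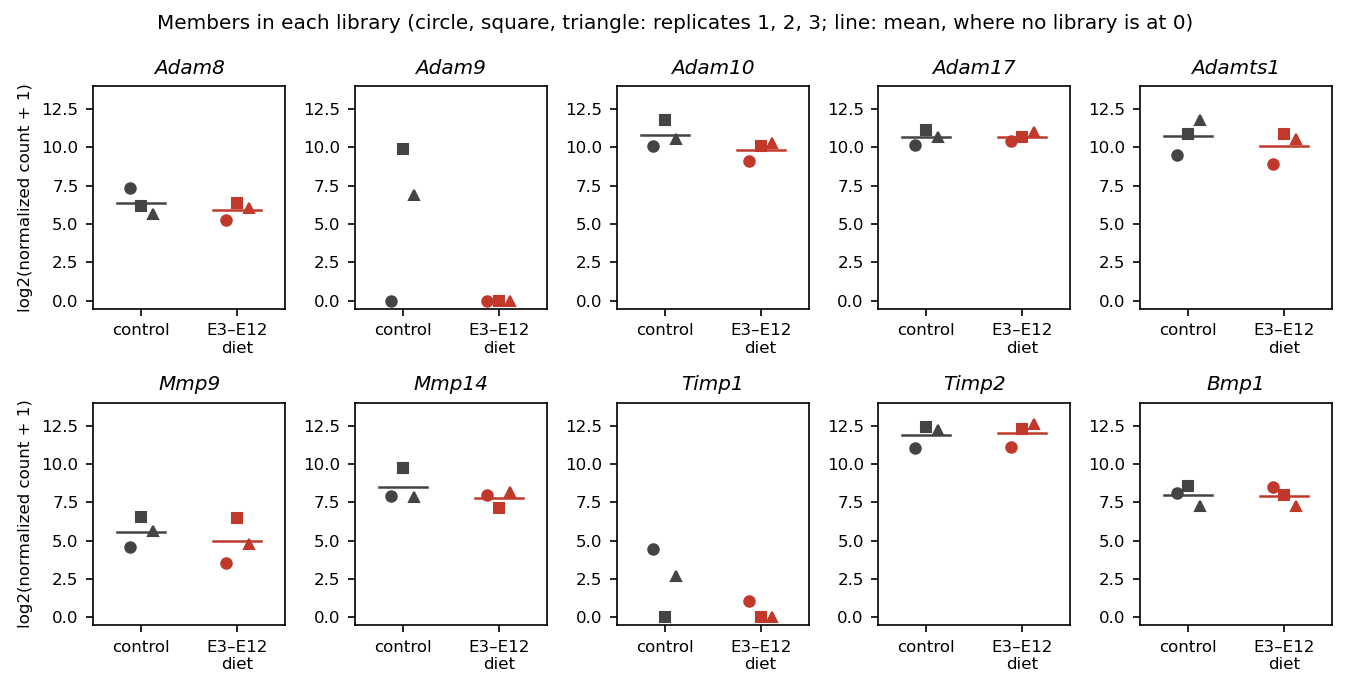
Level of each protease or inhibitor gene in each library, as log2(normalized count + 1), with circles, squares and triangles for replicates 1, 2 and 3 of the control (grey) and E3–E12 diet (red) groups and a line at the mean where no library is at 0. The groups overlapped for each gene, and Adam9 was above 0 in only 2 libraries, both control.

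Adam10 (ENSMUSG00000054693, chr9:70678997-70780229, plus strand of GRCm38, the build of all coordinates here) encodes the main shedding enzyme for Notch receptors. Its normalized counts were 1085, 3484.5 and 1518 in the controls against 562, 1069.6 and 1262 with the E3–E12 diet. Control replicate 2 was the highest and E3–E12 diet replicate 1 the lowest, and the groups overlapped because control replicate 1 lay below E3–E12 diet replicate 3. The group values were 2029 ± 1279 in controls and 965 ± 362 in E3–E12 diet mice (SD, n = 3 libraries each, as for all SDs here). The log2 fold change was -0.97 with a standard error of 0.70 and a 95% interval from -2.65 to 0.70. An exact permutation test, two-sided, gave p = 0.2, where 0.1 is the smallest p that 3 libraries against 3 allow. Control replicate 2, which was also the highest in microglia markers, weighed most. With it left out the log2 fold change of Adam10 was -0.49, and with control replicate 1 left out it was -1.33. With the mean of the microglia markers made equal between libraries, a setting chosen after seeing the data, the log2 fold change was -0.70. The part of the microglia level in this difference was not tested.

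Adam17 (ENSMUSG00000052593, chr12:21323509-21373632, minus strand) encodes the enzyme that releases tumor necrosis factor from the cell surface. It had 1124, 2296 and 1640.1 normalized counts in the controls against 1389, 1616 and 2082 with the E3–E12 diet. The groups lay over each other, at 1687 ± 587 and 1695 ± 353. The log2 fold change of 0.05 had a standard error of 0.58 and a 95% interval from -1.34 to 1.43 (exact permutation p = 1). With 1 library left out it ranged from -0.22 without control replicate 1 to 0.30 without control replicate 2. Adam17 shares 311 exon bases with Iah1 on the opposite strand, and whether counting used strand is not given in the sources used here.

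Adam9 and Adam8 encode the remaining ADAM enzymes. Adam9 (ENSMUSG00000031555, chr8:24949611-25016927, minus strand) was listed at 0, 972 and 117 normalized counts in the controls, and at 0 in all 3 E3–E12 diet libraries. The groups overlapped at 0, since control replicate 1 was at 0 as well. The unadjusted p from limma was 0.0494 and the exact permutation p was 0.4. Without control replicate 1, where Adam9 was at 0, the unadjusted p from limma was 0.000255 and the adjusted p 0.869. That fit set only controls above 0 against E3–E12 diet libraries all at 0. Its small p followed from the library left out and is no support for a difference. With any other single library left out the unadjusted p lay between 0.1002 and 0.139 (the latter without control replicate 2). Adam8 (ENSMUSG00000025473, chr7:139978932-139992562, minus strand) is expressed mainly in myeloid cells. It had 166, 71.1 and 48.9 normalized counts in the controls against 37.4, 80.8 and 66.4 with the E3–E12 diet. Control replicate 1 alone stood above the other 5. The log2 fold change of -0.50 (standard error 0.70, exact permutation p = 0.5) was -0.0096 without that library and -0.88 without control replicate 3.

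Among the secreted and matrix-cutting enzymes, Adamts1 (ENSMUSG00000022893, chr16:85793827-85803113, minus strand) encodes a protease that cuts the proteoglycans aggrecan and versican. It had 717, 1858 and 3536 normalized counts in the controls against 493, 1839 and 1501.5 with the E3–E12 diet. In both groups the library numbered 1 was the lowest, and it was also the lowest of its group in microglia markers. The log2 fold change was -0.60 (standard error 0.86, 95% interval from -2.66 to 1.46), and with 1 library left out it ranged from -1.21 without control replicate 1 to -0.013 without E3–E12 diet replicate 1. Adamts1 is also expressed in cells of vessels. Of 12 endothelial markers, the most abundant of which was Slc2a1, 8 had a higher mean log2 level in E3–E12 diet mice, or 3 to 10 with 1 library left out (3 without control replicate 2). They summed to 22219, 6114 and 22340 normalized counts in the controls against 20169, 17541 and 28293 with the E3–E12 diet. Pecam1 and Cldn5, unlike this sum, were highest in control replicate 2. The part of endothelial RNA in the level of Adamts1 was not tested.

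Mmp9 (ENSMUSG00000017737, chr2:164940780-164955850, plus strand) encodes gelatinase B, which is also abundant in neutrophils. Its normalized counts were 22.9, 92.6 and 48.0 in the controls against 10.8, 87.9 and 27.0 with the E3–E12 diet. Replicate 2 was the highest of each group. The log2 fold change was -0.63 with a standard error of 0.94, so it lay within its error, and with 1 library left out it ranged from -1.40 without E3–E12 diet replicate 2 to 0.061 without E3–E12 diet replicate 1. Of 12 neutrophil markers, which left out Mmp9 and Adam8, 10 were tested and 9 of these had a lower mean log2 level in E3–E12 diet mice (median log2 fold change -0.51), and 2 had a lower one without control replicate 2. They summed to 4201, 9227 and 7899.8 normalized counts in the controls against 3012, 7317 and 9322 with the E3–E12 diet. The most abundant was Csf3r, which microglia can also express and which made up most of these sums. Without it they were 919, 4383 and 757 against 1333, 894 and 856, so control replicate 2 stood far above each other library. Ly6g, a defining marker of neutrophils, was near 0, with at most 5.66 normalized counts in control replicate 2, whereas S100a9 had 190 to 1289 over the 6 libraries. The part of neutrophil RNA in the values of Mmp9 and Adam8 was not tested.

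Mmp14 (ENSMUSG00000000957, chr14:54431612-54445364, plus strand) encodes a membrane-bound metalloproteinase that activates the precursor of MMP2. It had 239, 846 and 231 normalized counts in the controls against 253, 139 and 287 with the E3–E12 diet. Control replicate 2 was far above the other 5 libraries, which lay between 139 and 287. The log2 fold change of -0.73 (standard error 0.74, exact permutation p = 0.6) was -0.12 without control replicate 2 and -1.05 without control replicate 3. Bmp1 (ENSMUSG00000022098, chr14:70474558-70520234, minus strand) encodes a secreted protease that trims procollagen. It had 279, 374 and 151 normalized counts in the controls against 356, 248 and 151 with the E3–E12 diet. The group values of Bmp1 were 268 ± 112 and 252 ± 103, a difference smaller than the spread between replicates. Its log2 fold change was -0.08 (standard error 0.66, 95% interval from -1.65 to 1.49). The direction turned under the scalings to equal library totals and to equal microglia markers. With 1 library left out Bmp1 ranged from -0.45 without control replicate 3 to 0.24 without E3–E12 diet replicate 3.

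Of the inhibitors, both Timp2 and Timp1 are among the 10 genes. Timp2 (ENSMUSG00000017466, chr11:118301069-118355740, minus strand) encodes an inhibitor that also takes part in the activation of MMP2 by MMP14. It had 2140.0, 5525 and 4799 normalized counts in the controls against 2211, 4942 and 6095 with the E3–E12 diet. Both libraries numbered 1, which were low in microglia markers, were low in Timp2, and the groups overlapped. The group values of Timp2 were 4155 ± 1782 and 4416 ± 1995, with a log2 fold change of 0.08 (standard error 0.70, 95% interval from -1.60 to 1.76, exact permutation p = 0.7). With 1 library left out it ranged from -0.35 (control replicate 1) to 0.51 (E3–E12 diet replicate 1). Timp1 (ENSMUSG00000001131, chrX:20870166-20874735, plus strand) encodes an inhibitor that astrocytes and other cells make in injury. It was listed at 21.3, 0 and 5.57 normalized counts in the controls against 1.07, 0 and 0 with the E3–E12 diet. Only control replicates 1 and 3 and E3–E12 diet replicate 1 were above 0, and in control replicate 1 the level of Timp1, at 24.0 normalized counts per kilobase of exon, was above that of Mmp9, at 6.48. Timp1 lies within Syn1, a neuronal gene on the opposite strand, with 0 shared exon bases. Of 10 astrocyte markers, whose most abundant gene was Slc1a2, 9 had a higher mean log2 level in E3–E12 diet mice, or 7 to 10 with 1 library left out. They summed to 9380.2, 2265 and 5762 normalized counts in the controls against 10346, 5064 and 5204 with the E3–E12 diet, and their part in the values of Timp1 was not tested.

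**Figure D2:**
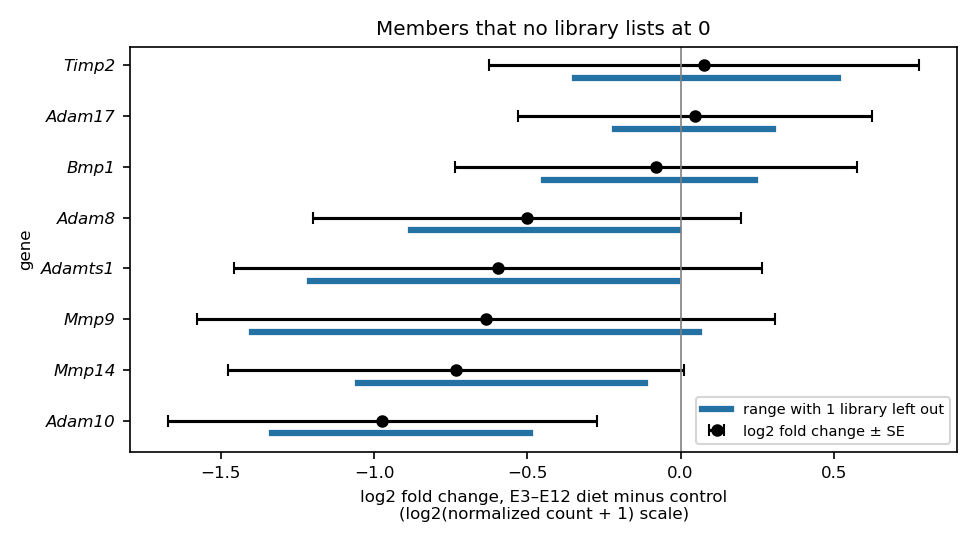
Log2 fold change, E3–E12 diet minus control, of the 8 genes that no library lists at 0, on the log2(normalized count + 1) scale, with points and bars for the value ± SE and blue lines for the range with 1 library left out. Adam10 was lowest, at -0.97, and the blue lines of Timp2, Adam17, Bmp1 and Mmp9 cross 0.

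Levels can be compared between genes only per length, so normalized counts were divided by the kilobases of exon of each gene. By the median over the 6 libraries, Timp2 was the highest with 1250.1 normalized counts per kilobase, followed by Adamts1 with 315, Adam10 with 239 and Adam17 with 228. Mmp14 (41.2), Bmp1 (29.7), Adam8 (14.8) and Mmp9 (10.6) came next, and Timp1 (0.60) and Adam9 (0) were last. Timp2 was the highest of the 10 genes in 6 of 6 libraries. Of neighbours in this order, only Adam17 and Mmp14 had ranges over the libraries that did not overlap, at 157 to 321 and 23.4 to 142 normalized counts per kilobase. Adamts1, Adam10 and Adam17 were thus not separated beyond their spread. Among 17869 genes that passed the filter and had an exon length, the median of Timp2 stood at percentile 98.6 and that of Adam10 at 90.0, against 54.1 for Mmp14 and 23.4 for Mmp9. The percentiles were added after the values were seen.

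**Figure D3:**
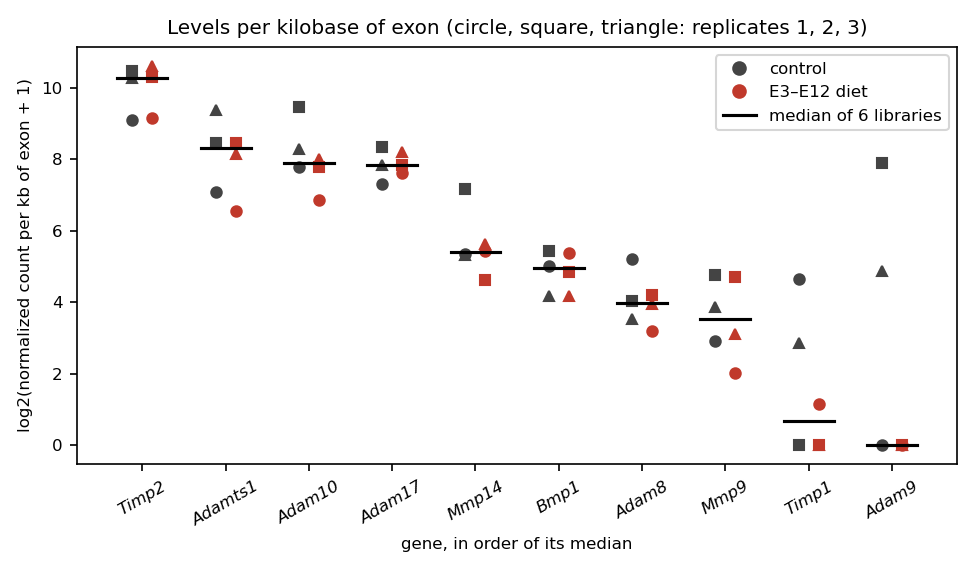
Level of each gene in each library as log2(normalized count per kilobase of exon + 1), in order of the median over the 6 libraries (black line), with circles, squares and triangles for replicates 1, 2 and 3 of the control (grey) and E3–E12 diet (red) groups. Within each library Timp2 is the highest of the genes, with a median of 1250.1 normalized counts per kilobase, and Adam17 and Mmp14 are the only neighbours whose ranges do not overlap.

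Adam10 and Adam17 are related enzymes that share many targets, and the balance between them was described by the ratio of their normalized counts within each library. This ratio was chosen after the values were seen and is a description only. Adam10 over Adam17 was 0.966, 1.52 and 0.926 in the controls against 0.404, 0.662 and 0.606 with the E3–E12 diet. Each E3–E12 diet library thus had a lower ratio than each control. The same was seen for Adam10 over Timp2, with 0.507, 0.631 and 0.316 in the controls against 0.254, 0.216 and 0.207 with the E3–E12 diet. These were the only 2 of the 28 pairs among the 8 genes whose groups did not overlap, and 2 of the 7 pairs that hold Adam10. Over 14424 genes of the table, 17.7% had a ratio to Adam10 that was higher in each E3–E12 diet library than in each control, so such a ratio was common. With 28 pairs and a smallest possible exact permutation p of 0.1, no ratio could pass an adjusted threshold.

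For each gene, the gene with the most similar log2 levels over the 6 libraries was taken from 10147 or 10148 others whose mean was 100 normalized counts or more and that no library listed at 0. With n = 6 libraries, many genes come close, so the correlations are a description. Adam10 was most like Cltc, the clathrin heavy chain, with Pearson's r of 0.993. Cltc had 5551, 25429 and 8590.2 normalized counts in the controls against 2662, 6053 and 8534 with the E3–E12 diet. Adam17 was most like Pip4k2a (0.993), Timp2 most like Lyl1 (0.994) and Adamts1 most like Ifngr1 (0.997). Mmp9 was most like Mmp19 (0.997), another matrix metalloproteinase, and Mmp14 most like Racgap1 (0.997), which also had its highest value in control replicate 2. Adam8 was most like Man1b1 (0.938) and Bmp1 most like Gm14324 (0.993). Adam9 and Timp1, at 0 in 4 and 3 libraries, are not given a partner. For Adam10, 162 genes had r over 0.95.

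Other genes of the protease network were taken from 9 lists with 121 entries, of which 103 were tested. By limma 0 of them passed the adjusted threshold, and 1 had an unadjusted p under 0.05. In the scaling of the authors 56 had a higher and 47 a lower mean log2 level in E3–E12 diet mice, with a median log2 fold change of 0.090, close to 0.087 over all genes. With equal medians 53 were higher, with quantile normalization 58, with equal library totals 65 and with equal microglia markers 72, and with a filter of 100 normalized counts 39 of 79. With 1 library left out 45 to 67 were higher, and without control replicate 2 the majority turned, to 45 higher and 58 lower. The other ADAM proteases had 3 higher of 8 tested, the other ADAMTS proteases 6 of 14 and the other MMPs 7 of 12, or 1 to 4, 4 to 8 and 4 to 8 with 1 library left out and 5, 9 and 8 with equal microglia markers. The partners that mature ADAM10 and ADAM17 had 5 higher of 12, or 5 to 7 with 1 library left out. Of the remaining inhibitors 3 of 4 were higher and of the plasminogen system 5 of 6, or 1 to 4 and 4 to 6 with 1 library left out. For matrix genes around synapses and vessels 14 of 21 were higher, and 17 with equal microglia markers. With 1 library left out 9 to 16 were higher (9 without control replicate 2). Endothelial markers were higher for 8 of 12, or 3 without control replicate 2, and mural and fibroblast markers for 8 of 13, or 4. Their part in the values of these matrix genes was not tested. All 3 BMP1-like proteases and enhancers that were tested were higher, with Pcolce at 0.01 and Pcolce2 at 0.03, and 0 of the 3 after the scaling to equal medians. The most abundant genes of these lists had log2 fold changes near 0, such as -0.19 for Adam15, -0.19 for Adamts10 and -0.33 for Timp3. Furin was at 0.28 and Sparc at 0.09, with larger values for Mmp15 (0.89) and Serpine2 (0.55). Adam15 ranged from -0.31 to -0.016 and Furin from 0.12 to 0.57 with 1 library left out. Adamts10, Timp3 and Sparc turned direction in some of these fits. With 1 library left out, Mmp15 ranged from 0.26 without E3–E12 diet replicate 1 to 1.57 without control replicate 1, and Serpine2 from 0.064 without control replicate 1 to 0.91 without E3–E12 diet replicate 1. The genes with the smallest p of their lists were Adam33 (-0.75), Adamts3 (-1.49), Mmp2 (-0.95), Timp4 (2.14), Tspan14 (-0.86), Nid2 (-1.06) and Serpinf2 (2.06), each with an adjusted p of 0.999 from limma. Timp4 and Serpinf2 had 1.99 and 1.84 normalized counts in control replicate 2, their lowest library, and without it their log2 fold changes were 0.33 and 0.69. Without the same library Adam33 was at -0.15 and Mmp2 at -0.16, against -1.10 and -1.58 without control replicate 1. Adamts3 ranged from -2.66 to -0.42 with 1 library left out and was -0.46 with a pseudocount of 10, Tspan14 ranged from -1.49 to -0.42 and Nid2 from -1.44 to -0.67.

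Of the substrates that ADAM10 or ADAM17 can shed, 23 were tested, 10 at a higher mean level with the diet and 13 at a lower one, where 10 were at a higher level with equal medians, 13 with quantile normalization, 14 with equal library totals, 16 with equal microglia markers and 9 to 14 with 1 library left out, so the direction of the majority was not stable. Il1r2, among the 10 that were higher, was at 0 in each control and passed the filter through E3–E12 diet libraries alone. The groups failed to overlap in 2 of the 23. Over all genes, 2.99% had each E3–E12 diet library above each control and 2.91% had each below. Tnf, the cytokine that ADAM17 releases, had 1083, 1012 and 825 normalized counts in the controls against 2342, 1789 and 4982 with the E3–E12 diet. Its log2 fold change was 1.51 (standard error 0.62), and ranged from 1.08 to 1.82 with 1 library left out. The unadjusted p from limma was 0.0482 and the adjusted p 0.999, so Tnf did not pass in this fit. The paper, which used DESeq2, lists Tnf among the genes upregulated in E3–E12 diet mice. Notch1, a receptor that ADAM10 cuts, had 3959, 3286 and 3816 normalized counts in the controls against 1946, 2594 and 1380.2 with the E3–E12 diet, and was named after its values were seen. Its log2 fold change was -0.94 (standard error 0.56, adjusted p from limma 0.999), and -1.16 to -0.71 with 1 library left out. The paper lists Notch1 among its downregulated genes. For Tnf and Notch1 the direction here was thus that of the paper, but neither passed in the limma fit. Why the fits differ was not tested. Both genes are at the level of RNA, and no shedding was measured. The most abundant substrate, Csf1r, is also one of the microglia markers, and its log2 fold change, -0.28, ranged from -0.88 without control replicate 1 to 0.37 without control replicate 2.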

How the data were processed

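The deposited values are a signal per gene: normalized counts that the authors scaled between libraries, with FastQC, STAR, featureCounts, DESeq2 and the build GRCm38 named in the submitters' processing notes. The name of the table mentions surrogate variables, and how they entered is not given in the sources used here. Library totals ran from 9407141 (E3–E12 diet replicate 1) to 17204618 (control replicate 2) normalized counts, and control replicate 1 was the lowest control, at 9671119. Low values were not whole multiples of 1 step (9.25% to 65.3% within a tolerance of 0.1), so whole reads could not be recovered and no count test was run.

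log2(normalized count + 1) was compared between groups with limma 3.58.1 in R 4.3.3, two-sided, for the 18007 genes whose mean over the libraries was 10 normalized counts or more, with Benjamini-Hochberg adjustment over all of them. The fit was checked on simulated data for its sign and scale only, with changes far larger than those reported, so this says nothing of its power here. Exact permutation tests used the 6 libraries. Exon lengths came from the GENCODE annotation on GRCm38. Named genes were the members, those of the lists whose unadjusted p was under 0.05, and for each member the gene most alike. In each list the most abundant gene and the gene of smallest p were also named. Notch1 and Il1r2 were named in addition. Marker lists are described where their cell type bears on a member, on a list or on the label of the libraries. The members and lists were chosen with earlier results of these data known. The ratios, the percentiles, the naming of Notch1 and Il1r2, the scaling to microglia markers and the leaving out of both libraries numbered 1 were chosen after the values were seen.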

Additional observations from a re-analysis of the deposited data

How the results depend on the processing

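Alternatives were 10 planned settings, 6 with 1 library left out, and 2 chosen after seeing the data (the scaling to an equal mean of microglia markers, and both libraries numbered 1 left out). The planned edgeR and DESeq2 tests were not run, since whole reads could not be recovered. No gene passed an adjusted p of 0.1 under any of these settings (smallest 0.111). For genes of the lists, log2 fold changes were recomputed for the named genes and otherwise only counted. The median of all genes, 0.087, was 0.20 with equal library totals, 0.36 with equal microglia markers, 0.046 with equal medians and -0.0034 with quantile normalization, -0.022 with a filter of 100, and -0.0042 to 0.18 with 1 library left out, so its sign was not stable. The causes of the shifts below were not tested.

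The 327 genes with an unadjusted p under 0.05 became 156 with a filter of 100, 491 with quantile normalization, 1423 with the first residual component as a covariate and 102 with equal microglia markers, and 276 to 551 with 1 library left out (551 without control replicate 1). Adam9 was the only one of the members among them, and 0 members were so with a pseudocount of 0.5, quantile normalization or equal library totals, and 0 to 1 with 1 library left out. Members higher in E3–E12 diet mice numbered 0 to 3, with 0 without control replicate 1. Of the list genes, 1 had an unadjusted p under 0.05. This count was 0 with no filter, with equal medians, with equal microglia markers and without both libraries numbered 1, 5 with the covariate, and 0 to 2 with 1 library left out.

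The median of the members was -1.03 without control replicate 1 and -0.15 without control replicate 2. With 1 library left out, log2 fold changes ranged from -1.21 to -0.013 for Adamts1, -1.33 to -0.49 for Adam10, -0.22 to 0.30 for Adam17, -1.40 to 0.061 for Mmp9, -0.35 to 0.51 for Timp2, -0.45 to 0.24 for Bmp1, -0.47 to 0.13 for Adamts10, -0.88 to 0.37 for Csf1r, -0.53 to 0.59 for Pcolce, -1.23 to 0.94 for Pcolce2, -0.40 to 0.42 for Sparc and -0.72 to 0.24 for Timp3. Bmp1 turned to 0.039 with equal library totals. With equal microglia markers Bmp1 was 0.19, Adam15 0.085 and Adamts10 0.083. Pcolce2 turned to -0.16 with a pseudocount of 10, to -0.86 with quantile normalization and to -0.0085 with equal medians, where Pcolce was -0.028. Without both libraries numbered 1, Adam8 was 0.31, Adam17 -0.081, Furin 0.59, Timp3 -0.96, Pcolce -0.78 and Sparc -0.038.

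Same-numbered libraries had correlations of 0.260, 0.0348 and 0.142 in their deviations from the group means, against -0.251 to 0.0869 for differently numbered ones. The rule set beforehand asked for all 3 over 0.1, so the main fit did not treat them as paired. Whether same-numbered libraries share a batch was not tested. With the number as a replicate block, 0 genes passed and 468 had an unadjusted p under 0.05. Tnf was no longer under 0.05.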
